A study of Mus musculus with 6 samples.

Results

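Integrins, laminins and the genes of focal adhesions were followed in podoplanin-positive cancer-associated fibroblasts (pCAFs) of mouse breast tumours. The members were taken from a table of 12235 genes by a rule on their names. They were the integrin alpha and beta chains and laminin chains whose symbols are the chain letter and a number or, for Itgav, v (27 genes), and 18 named genes of the basement membrane and of the adhesion plaque. All 18 were present, which gave 45 members.

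The host mice were BALB/c females aged 8 weeks, and each received 100000 cells of 4T1, a transplantable mammary carcinoma line from the same strain, in a mammary fat pad. All groups therefore share strain, age, sex and tumour line, which the labels name once as a GFP and once as a luciferase derivative. Tumours were taken at 1 cm and digested with collagenase, and live cells negative for Ter119, CD45 and EpCAM and positive for podoplanin (PDPN) were sorted by surface Ly6C into 3 Ly6C+ and 3 Ly6C- libraries of 3′ mRNA ends. No group without a tumour is compared here, and the labels do not say whether a library is 1 mouse or a pool, so p-values measure the spread between these libraries.

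Integrins are cell-surface receptors made of 1 alpha and 1 beta chain, and the pairing sets which matrix protein is bound. Laminins are trimers of an alpha, a beta and a gamma chain that polymerise into the basement membrane, where nidogens and the proteoglycans perlecan and agrin tie them to collagen IV and to cells. Inside the cell, talin and kindlin bind the beta tail and, with vinculin, the ILK complex, FAK, paxillin, zyxin and tensins, couple it to actin; fibroblasts use these contacts to pull on their matrix.

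The libraries held 2150531 to 2818269 reads in the Ly6C+ and 1176909 to 1721480 in the Ly6C- group. Values are normalised counts, that is, reads of a gene divided by 1 size factor per library, and 1 read was worth 0.610 to 1.31. Ly6c1, the gene of the sorting marker, stood at 3849, 3142 and 2316 in the Ly6C+ and 88.6, 77.4 and 65.6 in the Ly6C- libraries, as labelled, and is no finding. The cells carried fibroblast genes. Of 10 fibroblast markers, all tested as described below, 5 were higher and 1 (Pdgfrb) lower in Ly6C+, and 4 did not pass. Pdgfra stood at 490.4 to 555 in Ly6C+ and 206 to 229 in Ly6C- libraries, and Pdgfrb at 202 to 424 and 599 to 1088. Epcam and Ptprc, which encodes CD45, were at or below 2.95 and 4.88 everywhere. Summed markers of pericytes and smooth muscle (10 genes) were 193 to 249 in Ly6C+ and 884 to 1501 in Ly6C- libraries. Of these genes 8 were tested, and 6 (Cnn1, Cspg4, Des, Mcam, Myh11 and Notch3) were lower in Ly6C+. The means of Cnn1, Des and Cspg4 were 80.5-fold, 16.8-fold and 13.7-fold higher in Ly6C- pCAFs. Kcnj8 was higher in Ly6C+ (3.92-fold), and Abcc9 did not pass. The untested Higd1b was at 0 and Rgs5 at or below 5.24 in each library of the Ly6C+ and Ly6C- groups. Epithelial markers (12 genes) summed to 18.3 to 61.0 and 121 to 410.4 in these groups, and leukocyte markers (11 of 12 genes in the table) 275 to 1202 and 70.8 to 445. Of 10 endothelial markers 5 were in the table, with sums of 21.05 to 41.5 and 22.3 to 128. Of these, Kdr and Egfl7 were lower and Tek higher in Ly6C+, Pecam1 was at or below 4.25, and Cldn5 had 0 reads in Ly6C+ and 13 in Ly6C- pCAFs. Adipocyte markers (4 of 5 genes in the table) summed to 78.04 to 149.6 and 18.4 to 30.5, and platelet markers (2 of 5) to 75.9 to 138 and 50.2 to 65.6. Their part in the results below was not tested, and in sorted bulk RNA fewer cells of a type and less RNA per cell cannot be told apart.

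The called receptor and plaque genes and the called basement membrane genes mostly went opposite ways between the groups. Integrin and plaque genes, among them Itgb1, Itga5, Tln1, Fermt2 and Ilk, were lower in Ly6C+ than in Ly6C- pCAFs, whereas basement membrane genes such as Lama2, Lama4, Nid1 and Nid2 were higher. Lama1 and Lamc3 went against the other laminins that passed, and Itga11 and Pxn against the other receptor and plaque genes that passed. Of 45 members, 39 had a mean of at least 5 and were tested with limma on log2(value + 1) at a Benjamini-Hochberg adjusted p under 0.05 over all 9646 genes tested. The test called 9 members higher and 15 lower in Ly6C+ pCAFs, and 15 did not pass. Among all genes tested 17.1% were called, 9.41% higher and 7.66% lower. The median log2 difference (Ly6C+ minus Ly6C-, on log2(value + 1)) was -0.73 over the 39 members and -0.00 over all genes tested. Of the 39, 5 (Itga7, Itga10, Itgb2, Lama1 and Lamc3) had a mean under 5 in 1 group. They were admitted by the level of the other group. The calls of Itga7, Itga10, Lama1 and Lamc3 carry that choice, and Itgb2 did not pass. Reads of Ilk, Itga7, Nid2, Tln1 and Zyx are uncertain in that an opposite-strand gene of the table shares exon positions and the strand setting is not given.

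By class, 1 of 12 tested integrin members was higher and 6 lower, with 5 not passing. Of 13 tested laminins, nidogens and proteoglycans, 7 were higher, 3 lower and 3 did not pass. Of 14 cytoplasmic genes, 1 was higher, 6 lower and 7 did not pass. Of the tested members, 9 had all Ly6C+ libraries above all Ly6C- libraries and 15 had the reverse, where 17.1% and 16.1% of all genes tested showed such gaps (33.1% together). When totals were made equal between libraries, which moved the median of all genes by -0.19, 7 members were higher and 16 lower, and of all genes called 37.1% were higher against 55.1% here.

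**Figure D1:**
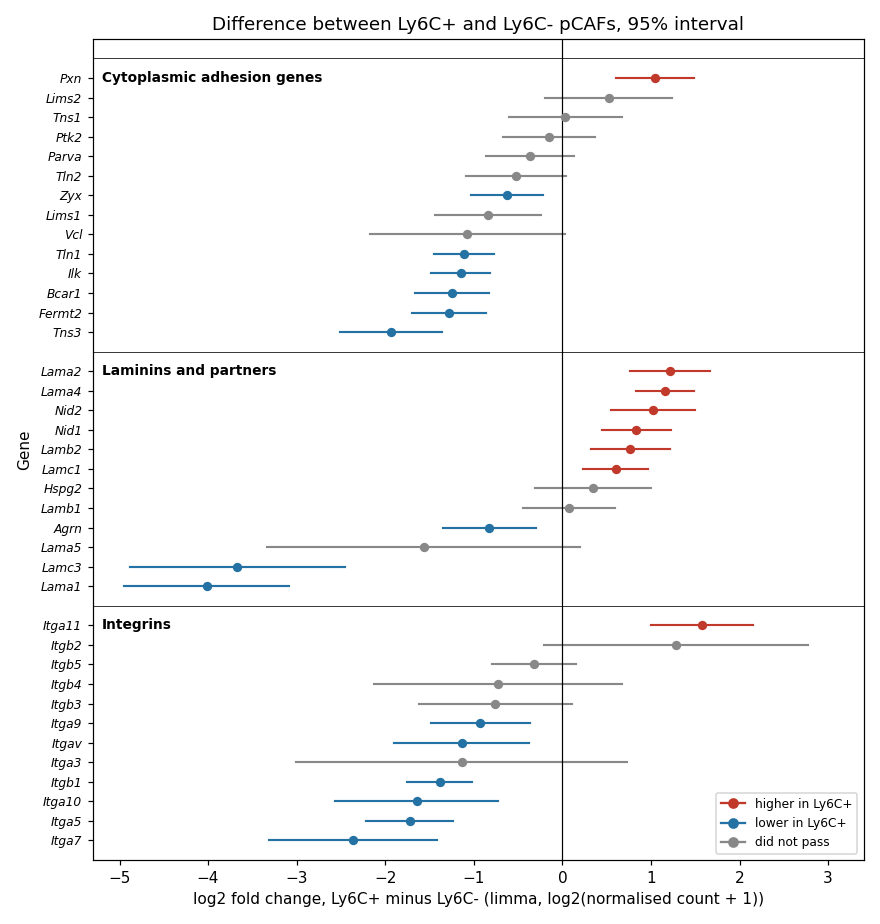
Log2 difference (Ly6C+ minus Ly6C-, x axis) of 38 of the 39 tested members, in 3 blocks by class (y axis), with the 95% interval from limma. Lama1 (-4.02) and Lamc3 (-3.67) lie far left of the other laminins, and Itga11 (1.58) lies right of 0 among integrins.

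Receptors for fibronectin and other RGD-bearing proteins were lower in Ly6C+ pCAFs where they passed. Itgb1 (chromosome 8, 128685654 to 128733200, plus strand, mm10), the beta chain shared by most alpha chains, stood at 575, 746 and 637 in the Ly6C+ and 1550.1, 1913 and 1648 in the Ly6C- libraries. Every Ly6C- library lay above every Ly6C+ library, and the group means were 653 ± 86.7 and 1704 ± 188 (SD, n = 3), 2.61-fold higher in Ly6C- (limma log2 difference -1.39, SE 0.17, adjusted p = 0.000171). Itga5 (chromosome 15, 103344286 to 103366763, minus strand), which with the Itgb1 product forms the main fibronectin receptor, stood at 127, 99.97 and 92.7 in the Ly6C+ and 418, 406 and 257 in the Ly6C- libraries. Its groups did not overlap either, with a 3.38-fold higher mean in Ly6C- pCAFs (limma log2 difference -1.73, SE 0.22, adjusted p = 0.0002799). Itgav (chromosome 2, 83724397 to 83806916, plus strand), the alpha chain of the vitronectin receptors that also release active TGF-beta, stood at 60.4, 51.1 and 117 in the Ly6C+ and 98.4, 182 and 219 in the Ly6C- libraries. Here the groups overlapped, since Ly6C+ replicate 3 lay above Ly6C- replicate 1, and the call was narrow (limma log2 difference -1.14, SE 0.34, adjusted p = 0.0443). It ended without Ly6C+ replicates 1 or 2 (adjusted p = 0.161 and 0.165) and without Ly6C- replicates 2 or 3 (0.154 and 0.107), with 0.00358 to 0.165 over all settings.

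Itgb5 and Itgb3, beta chains that pair with the alpha-v chain, did not pass. Itgb5, a vitronectin receptor chain, stood at 531, 534 and 314 in the Ly6C+ and 623, 524 and 529.7 in the Ly6C- libraries (limma log2 difference -0.32, 95% interval -0.79 to 0.16, adjusted p = 0.378). Itgb3, the beta chain of the platelet and osteoclast receptors, stood at 236, 58.6 and 119 in the Ly6C+ and 175, 235 and 195 in the Ly6C- libraries (limma log2 difference -0.76, 95% interval -1.61 to 0.10, adjusted p = 0.237). The Ly6C+ libraries were spread for Itgb3, with replicate 1 as high as any Ly6C- library. Without it Itgb3 was lower in Ly6C+ (log2 difference -1.25, limma adjusted p = 0.0252; 0.0252 to 0.685 over all settings). Itga8, an RGD-binding chain of smooth muscle and kidney mesenchyme, had no read in any Ly6C+ library and values of 8.86, 7.66 and 3.93 (9, 9 and 3 reads) in Ly6C- libraries. It was too low for the test, and was at least 10.1-fold lower in Ly6C+ pCAFs with a floor of 3 reads over the group, counting error only. In a fit without the filter on low values its adjusted p was 0.00120.

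Collagen receptors split. Itga11 (chromosome 9, 62677826 to 62783982, plus strand), the fibroblast receptor for fibrillar collagen, was the tested integrin member that was called higher in Ly6C+ pCAFs. It stood at 197, 181 and 158 in the Ly6C+ and 37.4, 71.5 and 76.04 in the Ly6C- libraries. The lowest Ly6C+ value was above every Ly6C- value, and the mean was 2.898-fold higher (limma log2 difference 1.58, SE 0.26, adjusted p = 0.00157). Itga10 (chromosome 3, 96645584 to 96664519, plus strand), a collagen receptor known from cartilage, went the other way at a low level, at 3.05, 2.26 and 4.64 in the Ly6C+ and 14.8, 10.2 and 11.8 in the Ly6C- libraries. These are 3 to 6 reads per Ly6C+ and 9 to 15 per Ly6C- library (limma log2 difference -1.64, SE 0.42, adjusted p = 0.01898), and the call ended without Ly6C+ replicates 1 or 2 (adjusted p = 0.0593 and 0.06797) or Ly6C- replicates 1 or 2 (0.0583 and 0.0518), with 0.00574 to 0.06797 over all settings. Itga2, a collagen receptor of platelets and epithelia, had 0 reads in Ly6C+ and 1 read in each Ly6C- library, at the floor in both groups.

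**Figure D2:**
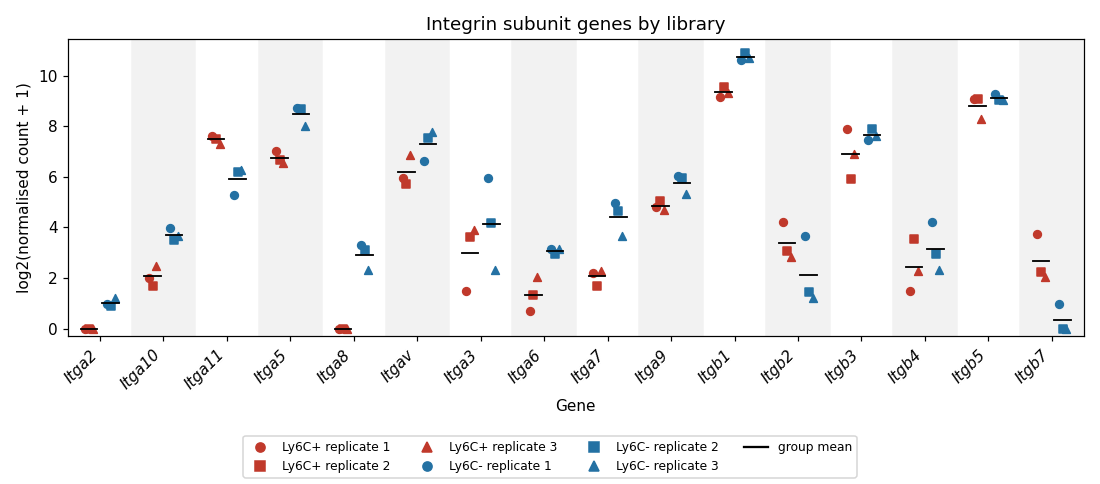
Log2(normalised count + 1) (y axis) of the 16 integrin members (x axis) in each of 3 Ly6C+ (red) and 3 Ly6C- (blue) libraries, marker shapes giving the replicate and black bars the group mean. Itgb1 and Itga5 show 2 separate clouds with Ly6C- higher, Itga11 with Ly6C+ higher, and Itga3 and Itgb3 show spread groups that overlap.

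Laminin receptors were present at low values. Itga7 (chromosome 10, 128933818 to 128958282, plus strand), the laminin receptor of muscle, stood at 3.66, 2.26 and 3.86 in the Ly6C+ and 30.5, 23.8 and 11.8 in the Ly6C- libraries. The groups did not overlap, and the mean was 6.76-fold higher in Ly6C- pCAFs (limma log2 difference -2.36, SE 0.43, adjusted p = 0.00298). Of the 10 pericyte and smooth muscle markers, 8 were tested, 6 lower and 1 (Kcnj8) higher in Ly6C+ pCAFs, and their part in the Itga7 values was not tested. Itga6, a laminin receptor chain of epithelium and endothelium, stood at 0.6099, 1.503 and 3.09 in the Ly6C+ and 7.87, 6.81 and 7.87 in the Ly6C- libraries. That is 7 reads in the Ly6C+ and 22 in the Ly6C- group, under the limit for the test (adjusted p = 0.0261 without the filter). The 5 endothelial markers in the table summed to 41.5, 21.05 and 28.6 in the Ly6C+ and 128, 115 and 22.3 in the Ly6C- libraries, and their part in the Itga6 values was not tested.

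Itga3 and Itgb4, epithelial laminin receptor chains, did not pass and varied between libraries of 1 group. Itga3 stood at 1.83, 11.3 and 13.9 in the Ly6C+ and 61.02, 17.01 and 3.93 in the Ly6C- libraries (limma log2 difference -1.14, 95% interval -3.00 to 0.73, adjusted p = 0.429). Itgb4 stood at 1.83, 10.5 and 3.86 in the Ly6C+ and 17.7, 6.81 and 3.93 in the Ly6C- libraries (limma log2 difference -0.73, 95% interval -2.12 to 0.67, adjusted p = 0.5104). The laminin gene Lama5, of epithelial and vascular basement membranes, stood at 1.22, 12.03 and 10.04 in the Ly6C+ and 52.2, 23.8 and 5.24 in the Ly6C- libraries (limma log2 difference -1.56, 95% interval -3.33 to 0.20, adjusted p = 0.234). In each of these genes Ly6C- replicate 1 was the highest library of all 6, and Ly6C+ replicate 1 the lowest. Of the 12 epithelial markers, 8 were highest in Ly6C- replicate 1, 2 in Ly6C- replicate 2 and 2 in Ly6C+ replicate 3. Among the keratin genes of that list, Krt8 stood at 3.05, 9.02 and 10.04 in the Ly6C+ and 81.7, 34.03 and 6.56 in the Ly6C- libraries and Krt18 at 3.66, 24.1 and 27.8 in the Ly6C+ and 183, 97.8 and 20.98 in the Ly6C- libraries, with the same libraries highest and lowest as these members. The other keratin genes differed from that order. Krt7 was highest in Ly6C- replicate 1 but lowest in Ly6C- replicate 3 (3.05, 18.04 and 11.6 in the Ly6C+ and 33.5, 12.8 and 1.31 in the Ly6C- libraries). Krt19 was not low in Ly6C- replicate 3 (4.88, 3.01 and 3.86 in the Ly6C+ and 57.1, 24.7 and 53.8 in the Ly6C- libraries), and Krt14 (0.6099, 0.752 and 0.773 in the Ly6C+ and 25.6, 40.8 and 26.2 in the Ly6C- libraries) and Krt5 were highest in Ly6C- replicate 2. The part of epithelial RNA in the values of Itga3, Itgb4 and Lama5 was not tested. Without Ly6C- replicate 1 the ratio of the Itga3 group means (Ly6C- over Ly6C+) went from 3.03 to 1.16, that of Lama5 from 3.49 to 1.87 and that of Itgb4 from 1.75 to 0.993. Without Ly6C+ replicate 2 the Itgb4 ratio was 3.33. Without Ly6C- replicate 3 Lama5 passed (log2 difference -2.41, limma adjusted p = 0.0296; 0.0296 to 0.6201 over all settings).

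**Figure D3:**
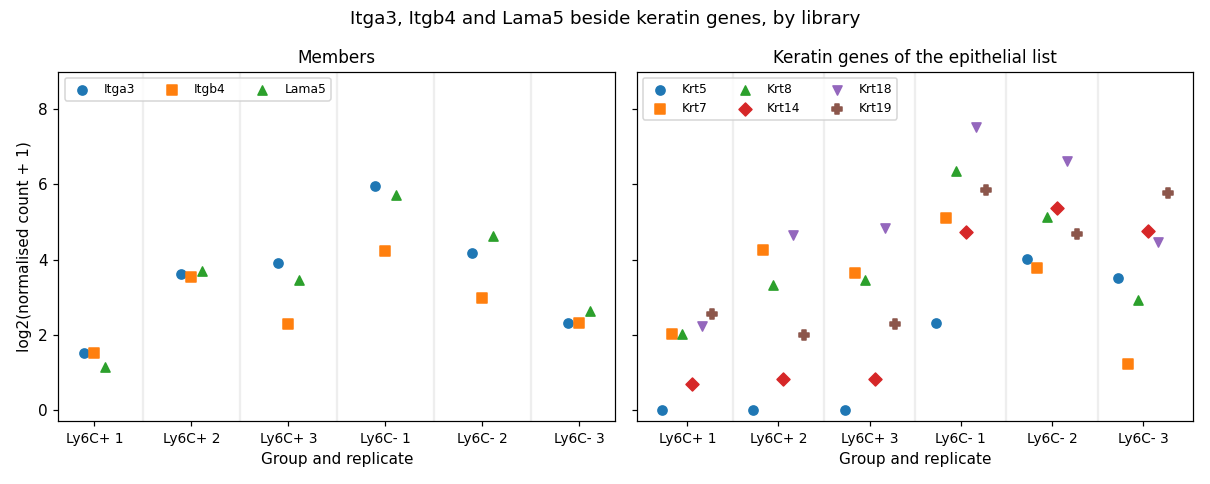
Log2(normalised count + 1) (y axis) of Itga3, Itgb4 and Lama5 (left) and of the 6 keratin genes of the epithelial list (right) in each of the 6 libraries (x axis). Ly6C- replicate 1 holds the highest value of each member and of Krt7, Krt8, Krt18 and Krt19, whereas Krt5 and Krt14 are highest in Ly6C- replicate 2.

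Itga9 (chromosome 9, 118606690 to 118901003, plus strand), a receptor for tenascin-C and osteopontin, stood at 26.8, 32.3 and 24.7 in the Ly6C+ and 64.96, 60.4 and 39.3 in the Ly6C- libraries. The groups did not overlap (limma log2 difference -0.92, SE 0.25, adjusted p = 0.0279), but the call ended without Ly6C+ replicates 1 or 3 (adjusted p = 0.0879 and 0.0827) or Ly6C- replicates 1 or 2 (0.0838 and 0.122), with 0.00684 to 0.122 over all settings. The leukocyte chains had the highest values in 1 library. Itgb2, the common beta chain of leukocyte integrins, stood at 17.7, 7.52 and 6.18 in the Ly6C+ and 11.8, 1.701 and 1.31 in the Ly6C- libraries and did not pass (limma log2 difference 1.28, 95% interval -0.21 to 2.77, adjusted p = 0.249), though it passed without Ly6C- replicate 1 (adjusted p = 0.0232; 0.0232 to 0.583 over all settings). Itgb7, the beta chain of gut-homing lymphocytes, stood at 12.2, 3.76 and 3.09 in the Ly6C+ and 0.984, 0 and 0 in the Ly6C- libraries, 29 reads against 1 read. The ratio is 20.1, with an exact 95% interval for the counts from 3.33 to 821, and the gene was not tested for lack of reads (adjusted p = 0.0153 without the filter). Of the 29 reads 20 were in Ly6C+ replicate 1, and the ratio of the group means was 19.4 with it and 10.4 without it. Ly6C+ replicate 1, the library where both chains were highest, also held the neutrophil genes S100a8 and S100a9 at 179 and 478, against at most 4.51 in any other library, and summed leukocyte markers of 1202. It was the highest library for 7 of the 11 leukocyte markers, whereas 2 were highest in Ly6C+ replicate 2 and 2 in Ly6C- replicate 1. Cd74 of that list stood at 22.0, 76.7 and 60.3 in the Ly6C+ and 315, 56.1 and 10.5 in the Ly6C- libraries. Cd3e stood at 165, 88.7 and 121 in the Ly6C+ and 19.7, 18.7 and 10.5 in the Ly6C- libraries. The part of leukocyte RNA in these values was not tested.

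Laminin alpha chains changed in both directions. Lama4 (chromosome 10, 38965515 to 39110188, plus strand), the alpha chain of vessel and mesenchymal laminins, stood at 822, 729 and 714 in the Ly6C+ and 322, 345 and 342 in the Ly6C- libraries. The Ly6C- libraries lay close together and well under the Ly6C+ ones, with means of 336 ± 12.8 and 755 ± 58.6 (n = 3), 2.24-fold higher in Ly6C+ (limma log2 difference 1.16, SE 0.15, adjusted p = 0.000284). Lama2 (chromosome 10, 26980036 to 27619758, minus strand), the alpha chain of muscle and nerve laminin whose loss causes a congenital muscular dystrophy, stood at 227, 149 and 175 in the Ly6C+ and 66.9, 83.4 and 82.6 in the Ly6C- libraries. Its groups did not overlap either, and the mean was 2.36-fold higher in Ly6C+ (limma log2 difference 1.22, SE 0.20, adjusted p = 0.00173). Lama1 (chromosome 17, 67697259 to 67822647, plus strand), the alpha chain of embryonic basement membranes, showed the opposite pattern, at 2.44, 8.27 and 2.32 in the Ly6C+ and 56.1, 103 and 74.7 in the Ly6C- libraries. It rested on 18 reads in Ly6C+ and 235 in Ly6C- pCAFs, a 17.9-fold difference of the means (limma log2 difference -4.02, SE 0.42, adjusted p = 6.31e-05). With 1 library left out, the difference ran from 14.6-fold (without Ly6C+ replicate 3) to 32.8-fold (without Ly6C+ replicate 2). Lama3, an epidermal chain, stood at 3 reads in Ly6C+ and 7 in Ly6C- pCAFs, a ratio of 3.37 (Ly6C- over Ly6C+, counting interval 0.769 to 20.2).

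Among beta chains, Lamb2 (chromosome 9, 108479736 to 108490530, plus strand), a chain of vascular and synaptic laminins, stood at 826, 552 and 653 in the Ly6C+ and 413, 462 and 316 in the Ly6C- libraries. The groups did not overlap and the mean was 1.71-fold higher in Ly6C+ (limma log2 difference 0.77, SE 0.20, adjusted p = 0.0225). The call ended without Ly6C+ replicates 1 or 3 (adjusted p = 0.0989 and 0.0534), without Ly6C- replicate 3 (0.0585) and when libraries were scaled to their totals (0.0786), with 0.00781 to 0.0989 over all settings. Lamb1, the more widespread beta chain, stood at 629, 596 and 1097 in the Ly6C+ and 596, 751 and 788 in the Ly6C- libraries and did not pass (limma log2 difference 0.074, 95% interval -0.44 to 0.59, adjusted p = 0.8797). Its Ly6C+ replicate 3 was above all other libraries. Lamb3, a chain of epidermal laminin, had 2 reads in Ly6C+ and 9 in Ly6C- pCAFs, 7 of them in Ly6C- replicate 2 (ratio 6.50, counting interval 1.34 to 61.8), and the ratio of the group means was 6.06 with that library and 2.53 without it.

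Lamc1 (chromosome 1, 153218922 to 153332786, minus strand), the gamma chain of most laminins, stood at 434, 454 and 572 in the Ly6C+ and 298, 311 and 346 in the Ly6C- libraries. All Ly6C+ libraries were above all Ly6C- libraries by a modest margin, 1.53-fold in the means (limma log2 difference 0.60, SE 0.17, adjusted p = 0.0296). That call ended without Ly6C+ replicates 2 or 3 (adjusted p = 0.06698 and 0.0963), without Ly6C- replicates 1 or 2 (0.0776 and 0.111) and with totals as the scale (0.119), with 0.00952 to 0.119 over all settings. Lamc3 (chromosome 2, 31887291 to 31946539, plus strand), a less widespread gamma chain, was lower in Ly6C+ pCAFs, at 1.83, 0 and 0.773 in the Ly6C+ and 36.4, 17.01 and 14.4 in the Ly6C- libraries. On 4 Ly6C+ reads and 68 Ly6C- reads the means differed 26.1-fold (limma log2 difference -3.67, SE 0.55, adjusted p = 0.0007997). With 1 library left out, this ran from 17.4-fold (without Ly6C+ replicate 2) to 58.5-fold (without Ly6C+ replicate 1).

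**Figure D4:**
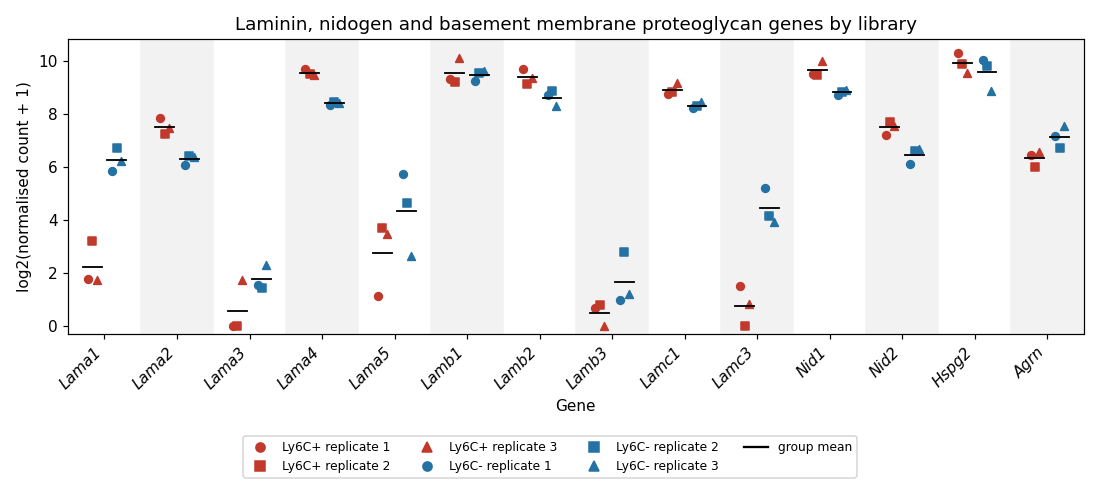
Log2(normalised count + 1) (y axis) of 10 laminin chain genes and of Nid1, Nid2, Hspg2 and Agrn (x axis) in 3 Ly6C+ (red) and 3 Ly6C- (blue) libraries, with black bars at the group means. Lama1 and Lamc3 sit well higher in the Ly6C- libraries, and Lama2, Lama4, Nid1 and Nid2 higher in the Ly6C+ libraries with no overlap.

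Among the other basement membrane genes both nidogens were higher in Ly6C+ pCAFs, agrin was lower and perlecan did not pass. Nid1 (chromosome 13, 13437551 to 13512269, plus strand), nidogen 1, which bridges laminin and collagen IV, stood at 733, 710.3 and 1009.9 in the Ly6C+ and 424, 454 and 477 in the Ly6C- libraries. Nid2 (chromosome 14, 19751265 to 19811787, plus strand), its paralog, stood at 148, 208 and 185 in the Ly6C+ and 67.9, 96.98 and 102 in the Ly6C- libraries. Both were higher in every Ly6C+ than in any Ly6C- library, by 1.81-fold (limma log2 difference 0.84, SE 0.18, adjusted p = 0.00694) and 2.03-fold (limma log2 difference 1.02, SE 0.21, adjusted p = 0.00691) in the means. Hspg2, perlecan, stood at 1271, 943 and 746 in the Ly6C+ and 1054, 897 and 461 in the Ly6C- libraries and did not pass (limma log2 difference 0.34, 95% interval -0.31 to 1.00, adjusted p = 0.504), with the 2 groups interleaved. Agrn (chromosome 4, 156165290 to 156197488, minus strand), agrin, which organises the neuromuscular synapse, was lower in Ly6C+ pCAFs, at 86.00, 62.4 and 92.7 in the Ly6C+ and 145, 105 and 184 in the Ly6C- libraries (limma log2 difference -0.82, SE 0.24, adjusted p = 0.0374). The call of Agrn ended without Ly6C+ replicates 1 or 2 (adjusted p = 0.0798 and 0.153) or Ly6C- replicates 1 or 3 (0.0652 and 0.0963), with 0.00304 to 0.153 over all settings.

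Tln1 and Fermt2, whose products bind the integrin tail, were lower in Ly6C+ pCAFs, while Tln2 and Vcl did not pass. Tln1 (chromosome 4, 43531519 to 43562691, minus strand), talin 1, which activates integrins and links them to actin, stood at 622, 539 and 503 in the Ly6C+ and 1199, 1141 and 1238 in the Ly6C- libraries. Each Ly6C- library held about the same level, above all Ly6C+ libraries, and the mean was 2.15-fold higher there (limma log2 difference -1.11, SE 0.15, adjusted p = 0.000485). Fermt2 (chromosome 14, 45458795 to 45530118, minus strand), kindlin 2, the co-activator that works with talin, stood at 105, 105 and 100.4 in the Ly6C+ and 206, 250.1 and 313 in the Ly6C- libraries. The Ly6C+ libraries were nearly equal and all under the Ly6C- ones (2.48-fold in the means; limma log2 difference -1.28, SE 0.19, adjusted p = 0.000728). Tln2, the second talin, stood at 29.3, 32.3 and 23.2 in the Ly6C+ and 50.2, 42.5 and 31.5 in the Ly6C- libraries and did not pass (limma log2 difference -0.52, 95% interval -1.09 to 0.04, adjusted p = 0.212). Vcl, vinculin, which reinforces talin under force, stood at 45.7, 51.9 and 61.04 in the Ly6C+ and 38.4, 174 and 206 in the Ly6C- libraries. Ly6C- replicate 1 lay below all Ly6C+ libraries, whereas the other Ly6C- libraries lay far above them. Vcl did not pass (limma log2 difference -1.07, 95% interval -2.17 to 0.03, adjusted p = 0.187) but passed without Ly6C- replicate 1 (log2 difference -1.83, limma adjusted p = 0.0001003), in edgeR with TMM factors (0.0492) and in DESeq2 (0.00632), with 0.0001003 to 0.475 over all settings.

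Promoter windows of members were searched for 4 short motifs, since some of these genes are known targets of the actin-regulated factor SRF, which binds the CArG box. RefSeq (GRCm38.p6) gave windows, from 250 bases before to 50 after a start, for 28 members (35 windows). The CArG box was found in 3 members, Fermt2, Lama2 and Vcl (8.57% of member windows and 1.63% of all 32851 windows). The first was called lower, the second was called higher and the third did not pass (limma log2 difference -1.28, 1.22 and -1.07). The part of the box in these values was not tested. The windows of the pair that passed are shown with the box in capitals, both windows being on the minus strand and the box, a symmetric pattern, matching on both strands. It lies 204 bases before the start in Fermt2 (chr14:45530016-45530315) and 39 before the start of the window in Lama2 (chr10:27616893-27617192). That Lama2 window lies inside the annotated gene, whose 5′ end on the minus strand is at 27619758. Its start is therefore not the outermost start of Lama2.
Fermt2: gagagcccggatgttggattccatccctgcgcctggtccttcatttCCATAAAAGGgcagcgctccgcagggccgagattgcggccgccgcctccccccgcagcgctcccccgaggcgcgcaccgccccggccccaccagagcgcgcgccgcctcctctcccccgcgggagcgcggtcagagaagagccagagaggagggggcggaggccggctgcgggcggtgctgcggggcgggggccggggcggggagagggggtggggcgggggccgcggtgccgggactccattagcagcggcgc
Lama2: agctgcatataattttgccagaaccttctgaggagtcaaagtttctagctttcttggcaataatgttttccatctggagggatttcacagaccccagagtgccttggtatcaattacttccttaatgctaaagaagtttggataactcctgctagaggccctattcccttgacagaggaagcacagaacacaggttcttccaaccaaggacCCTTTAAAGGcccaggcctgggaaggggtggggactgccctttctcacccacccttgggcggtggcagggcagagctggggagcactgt
The other motifs, searched on both strands with overlaps to other motifs allowed, were TGANTCA (AP-1), GGAATG (TEAD) and TGTGGT (RUNX). They were in 8.57%, 14.3% and 8.57% of member windows and in 7.81%, 14.7% and 16.8% of all windows. TGANTCA was in Itga3, Itga9 and Zyx, GGAATG in Itga10, Itgb1, Lamb3, Nid1 and Vcl, and TGTGGT in Ilk and Itga3. Of all 28 members with windows, 12 were called lower and 4 higher in Ly6C+ pCAFs. Of the genes with these motifs, Itga9, Zyx, Itga10, Itgb1 and Ilk were called lower and Nid1 higher. Itga3 and Vcl did not pass, and Lamb3 was not tested. The matching windows of Itga9 (chr9:118711442-118711741), Lamb3 (chr1:193301993-193302292) and Itga3 (chr11:95069149-95069448) lie inside the annotated genes. The annotated 5′ ends of Itga9, Lamb3 and Itga3 are at 118606690, 193207699 and 95076801, so these windows are not at the outermost starts. A match is a description of the letters and no evidence of binding.

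The ILK complex, which couples the beta tail to actin, was lower for its kinase-like core. Ilk (chromosome 7, 105736592 to 105742925, plus strand), integrin-linked kinase, stood at 391, 386 and 359 in the Ly6C+ and 759, 898 and 869 in the Ly6C- libraries. The groups were far apart relative to their spread, with a 2.23-fold higher Ly6C- mean (limma log2 difference -1.15, SE 0.15, adjusted p = 0.000338). Its partner Lims1, the adaptor PINCH, stood at 41.5, 57.9 and 61.8 in the Ly6C+ and 65.9, 98.7 and 134 in the Ly6C- libraries. The Lims1 groups did not overlap, but it missed the threshold (limma log2 difference -0.84, 95% interval -1.44 to -0.24, adjusted p = 0.05903). It passed in edgeR with TMM factors (adjusted p = 0.0383), in DESeq2 (0.0285) and without Ly6C- replicate 1 (0.00987), 8 of 20 alternatives in all (0.005897 to 0.2103 over all settings). Parva, the actin-binding alpha-parvin, stood at 299, 319 and 259.6 in the Ly6C+ and 512, 389 and 269 in the Ly6C- libraries and did not pass (limma log2 difference -0.37, 95% interval -0.86 to 0.13, adjusted p = 0.324), except without Ly6C- replicate 3 (adjusted p = 0.0488; 0.0488 to 0.714 over all settings). Lims2, the second PINCH gene, stood at 98.8, 49.6 and 68.8 in the Ly6C+ and 37.4, 38.3 and 77.4 in the Ly6C- libraries (limma log2 difference 0.53, 95% interval -0.19 to 1.24, adjusted p = 0.332), with overlapping groups.

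Scaffold and signalling genes of the plaque did not move as 1 block. Tns3 (chromosome 11, 8431652 to 8664535, minus strand), a tensin that binds the beta tail, stood at 33.5, 66.1 and 50.2 in the Ly6C+ and 217, 147 and 206 in the Ly6C- libraries, 3.799-fold higher in Ly6C- pCAFs and without overlap (limma log2 difference -1.94, SE 0.26, adjusted p = 0.0003902). Its relative Tns1 stood at 279, 114 and 155 in the Ly6C+ and 135, 178 and 191 in the Ly6C- libraries and did not pass (limma log2 difference 0.034, 95% interval -0.61 to 0.68, adjusted p = 0.962). Bcar1 (chromosome 8, 111710474 to 111743809, minus strand), the Cas scaffold that is stretched and phosphorylated under load, stood at 64.04, 90.95 and 67.2 in the Ly6C+ and 176, 169 and 181 in the Ly6C- libraries. The Ly6C- libraries were tightly grouped and 2.37-fold higher in the mean (limma log2 difference -1.25, SE 0.19, adjusted p = 0.000864). Pxn (chromosome 5, 115506676 to 115555987, plus strand), paxillin, an early scaffold of nascent adhesions, went the other way, at 325, 243 and 254 in the Ly6C+ and 156, 138 and 105 in the Ly6C- libraries. All Ly6C+ libraries were above all Ly6C- libraries, 2.06-fold in the means (limma log2 difference 1.04, SE 0.20, adjusted p = 0.00405). Ptk2, focal adhesion kinase, stood at 89.7, 69.2 and 52.5 in the Ly6C+ and 90.5, 75.7 and 65.6 in the Ly6C- libraries (limma log2 difference -0.15, 95% interval -0.67 to 0.37, adjusted p = 0.741), with overlapping groups. Zyx (chromosome 6, 42349630 to 42360213, plus strand), zyxin, which is recruited to strained stress fibres, stood at 862, 807 and 688 in the Ly6C+ and 1293, 1403 and 971 in the Ly6C- libraries. It was lower in every Ly6C+ library, by a small margin (1.56-fold higher Ly6C- mean; limma log2 difference -0.63, SE 0.18, adjusted p = 0.0369). The Zyx call ended without any 1 of the 3 Ly6C+ libraries (adjusted p = 0.0643, 0.0894 and 0.113) or without Ly6C- replicates 1 or 2 (0.0851 and 0.169), with 0.00784 to 0.169 over all settings.

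**Figure D5:**
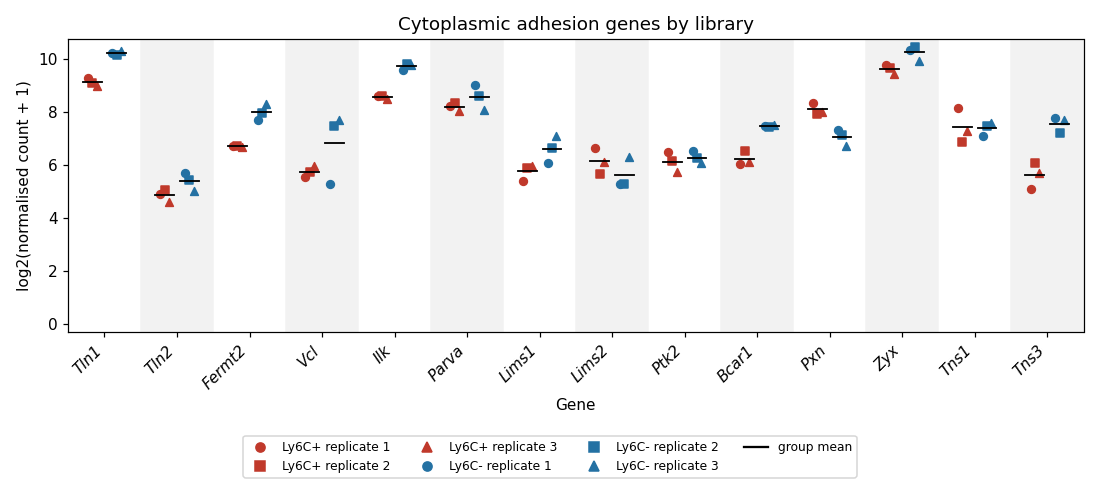
Log2(normalised count + 1) (y axis) of the 14 cytoplasmic adhesion genes (x axis) in 3 Ly6C+ (red) and 3 Ly6C- (blue) libraries, marker shapes giving the replicate and black bars the group mean. Tln1, Fermt2, Ilk, Bcar1 and Tns3 are higher in all Ly6C- libraries, Pxn in all Ly6C+ libraries, and the Vcl value of Ly6C- replicate 1 lies with the Ly6C+ libraries.

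Other genes of focal adhesions were read from a list that does not contain the members. Over all genes tested, 7.66% were called lower and 9.41% higher, to be set beside this list and those that follow. Of 47 genes listed, 41 were tested, with a median log2 difference of -0.11. Of the genes tested in this list, 13 were lower and 3 higher in Ly6C+ pCAFs and 25 did not pass. The 4 genes with the smallest p-values were all lower in Ly6C+. Csrp1, a LIM protein, was 5.28-fold, Tes, the zyxin partner testin, 4.84-fold, Flna, filamin A, 2.96-fold and Actn1, alpha-actinin 1, 2.83-fold higher in Ly6C- pCAFs (limma adjusted p = 4.69e-06, 1.31e-05, 0.000102 and 0.000116). Tes stood at 39.6, 48.9 and 57.2 in the Ly6C+ and 240.1, 237 and 228 in the Ly6C- libraries. The 3 that were higher in Ly6C+ were Tns2, the kinase gene Fyn and Cav1, named after their values were seen, and Tns2 stood at 543, 501 and 459.7 in the Ly6C+ and 225, 205 and 248 in the Ly6C- libraries. Among tensins, Tns2 was thus called higher, Tns3 lower and Tns1 neither.

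Of 26 further basement membrane genes, 19 were tested, 3 higher, 4 lower and 12 not passing (median -0.17). The 4 with the smallest p were all lower in Ly6C+. Sdc1, the matrix receptor syndecan 1, stood at 290.3, 339 and 314 in the Ly6C+ and 1216, 1214 and 1422 in the Ly6C- libraries (limma adjusted p = 7.68e-06). Frem1, an epithelial basement membrane protein, was 9.91-fold, Col15a1, a collagen of the outer basement membrane, 2.94-fold and Bcam, a receptor for the Lama5 product, 12.2-fold higher in Ly6C- pCAFs. Bcam rested on low values, 1.22, 4.51 and 0 in the Ly6C+ and 30.5, 21.3 and 18.4 in the Ly6C- libraries. The main chains of collagen IV, the network that nidogens bind, are added outside the naming rule and did not pass: Col4a1 (limma log2 difference 0.46, 95% interval 0.08 to 0.84, adjusted p = 0.0993) and Col4a2 (limma log2 difference 0.26, 95% interval -0.11 to 0.62, adjusted p = 0.3497).

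Of 24 integrin ligands and other matrix partners, 21 were tested, 6 higher, 6 lower and 9 not passing (median -0.19). Vtn, vitronectin, the ligand of the alpha-v receptors, stood at 202, 203 and 173 in the Ly6C+ and 3.94, 11.9 and 10.5 in the Ly6C- libraries, 21.9-fold higher in Ly6C+ pCAFs (limma log2 difference 4.42, SE 0.34, adjusted p = 7.45e-06). Of the ligands of the receptor that holds the Itga9 chain, Spp1 had a 26.9-fold and Tnc an 8.63-fold higher mean in Ly6C- pCAFs. Tgfb1, whose latent protein alpha-v integrins bind, had a 7.103-fold higher mean there (limma adjusted p = 1.41e-07, 7.45e-06 and 6.73e-05 in the order named). Vcam1 of the same list went the other way, at 106, 131 and 105 in the Ly6C+ and 44.3, 40.8 and 40.6 in the Ly6C- libraries (limma adjusted p = 0.000402). Fn1, fibronectin itself, stood at 7052, 7239 and 10611 in the Ly6C+ and 6073, 5739 and 6807 in the Ly6C- libraries and did not pass (limma log2 difference 0.40, 95% interval -0.05 to 0.84, adjusted p = 0.232).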

How the data were processed

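The deposited values are of the kind signal: the authors scaled the reads of every library by its own size factor, which gives normalised counts. The submitters' processing notes name the build mm10 and the tools HTSeq, bcl2fastq and STAR 2.4.2a. The size-factor tool, annotation, strand setting, molecular tags and gene filter are not given in the sources used here. All values were whole multiples of 1 step per library (tolerance 0.001), so whole reads were recovered.

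Genes with a mean of at least 5 (9646 of 12235, 99.6% of reads) were tested with limma 3.58.1 (R 4.3.3) on log2(value + 1), with a mean-variance trend and no block, at an adjusted p under 0.05. The scale understates changes of low genes. Fold values are ratios of group means, and intervals for groups of 1 to 3 reads are exact 95% counting intervals. Alternatives were other pseudocounts, filters, scalings, priors and thresholds, a replicate block, leaving out each library in turn, and edgeR 4.0.16 and DESeq2 1.42.0 on recovered reads. The pipeline was tested on simulated data. Low-read ratios are reads per exposure (1 over the value of a read), and floors and intervals cover counting error only.

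Coordinates and overlaps came from GENCODE M21 (GRCm38, the mm10 sequence). Exons of 15 members, 10 of them called, overlap another gene, and as the strand setting is not given their reads are uncertain. The partner is in the table for 5 called members (Ilk, Itga7, Nid2, Tln1 and Zyx). The other called members with such an overlap are Itga10, Itgav, Lama2, Lamc3 and Nid1.

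Of the members, 1 counted in the totals is not reported here, and 44 are named. Those named that passed the test are given with all 6 values, and of each further list up to 4 genes with the smallest p, other genes being chosen after their values were seen. The members, lists and tests were chosen with earlier results of these data known. Figures were drawn with matplotlib 3.10.9 in Python 3.11.15, and tables were made with scipy 1.17.1, pandas 2.3.3 and numpy 2.4.6.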

Additional observations from a re-analysis of the deposited data

How the results depend on the processing

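Across 20 alternative fits, 16 of the 24 called members kept their call in every fit that tested them and 8 lost it in at least 1, none of the 24 changing sign. The number of genes called was 959 at a threshold of 0.01, against 1647. Leaving out 1 library gave 1126 to 1736 genes, 7 to 9 members higher and 11 to 15 lower. Without the filter 10 members were higher and 17 lower; edgeR with TMM factors and DESeq2 each called 9 and 17, and edgeR with RLE factors 9 and 16. Without a mean-variance trend it was 7 and 12, with Agrn, Itgav, Lamb2, Lamc1 and Zyx lost, and a robust prior ended the call of Itgav. Direction turned for 4 uncalled members near 0. Lamb1 was -0.036 after quantile normalization and -0.12 with total scaling, and ran from -0.21 to 0.23 with 1 library left out. Tns1 was -0.16 with total scaling and ran from -0.32 to 0.32. Hspg2 ran from -0.014 to 0.58 and Ptk2 from -0.34 to 0.039. The cause was not tested. Replicate numbers shared between groups were not treated as pairs, as the deviations of same-numbered libraries correlated at 0.13, 0.05 and 0.17, although all 6 libraries correlated best with their own number. With the replicate block limma called 2088 genes, 9 members higher and 16 lower, and edgeR 2112 genes, 9 and 17. Depth limits the 6 members under the filter, of which Itga2 had 3 reads in all.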
